A study of Mus musculus with 14 samples.

Results

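The 10 genes described here belong to the BCL2 family, and they were taken by name from the family's 2 opposed arms. The survival arm held 3 genes (Bcl2, Bcl2l1, and Mcl1) and the death arm held 7, namely the effectors Bax and Bak1 and the BH3-only genes Bbc3, Pmaip1, Bcl2l11, Bid, and Bad. They are 10 of 21440 protein-coding genes for which a start could be placed, and all 10 were among the 11564 genes that had an H3K4me3 peak within 1 kb of a start in at least 1 list. LSK cells (Lin-Sca1+cKit+ hematopoietic stem and progenitor cells) were sorted from the bone marrow of C57BL/6J male mice fed a high-fat diet (HFD) or a low-fat control diet (LFD) for several months from soon after weaning, with no genetic change in either group. The libraries came from 3 HFD-LSK samples and 4 LFD-LSK samples, and their H3K4me3, trimethylation of lysine 4 on histone H3, was mapped with CUT&Tag, in which an antibody directs a transposase that cuts adapters into the marked chromatin. The labels do not say whether a sample holds cells of more than 1 mouse, so p-values measure the spread between these samples, which may be technical. The study states that its peak comparison took account of batch and of paired samples, and it mentions an added LSK cohort. It does not say which cohort or pair each library belongs to. Cohort could therefore not be entered in any test, and the main tests took no pairs. The part of cohort or pairing in the differences was not tested.

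BCL2 family proteins decide at the mitochondrial outer membrane whether a cell under stress lives. The effectors BAX and BAK1 can assemble into pores that release cytochrome c, the survival proteins BCL2, BCL-XL (from Bcl2l1), and MCL1 hold them in check, and the BH3-only proteins relay damage, cytokine loss, or death receptor signals by binding the survival proteins or the effectors. MCL1 is known to be required for the survival of hematopoietic stem cells, and BIM (from Bcl2l11) and PUMA (from Bbc3) are known for removing blood cells after cytokine loss and DNA damage. H3K4me3 marks the starts of genes that are active or held ready, so a peak reports a marked promoter and is not a measure of protein.

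The 7 lists differ in size and depth, which bears on every comparison of the diets. The HFD-LSK lists, replicates 1 to 3, held 9186, 13094, and 11977 peaks, whereas the LFD-LSK lists, replicates 1 to 4, held 7447, 10572, 10352, and 6921. The number of fragments at each peak's summit was recovered from the deposited fold and p-value. The list medians were 42, 43, and 15 fragments in HFD-LSK and 48, 33, 19, and 21 in LFD-LSK, and the fewest called at any peak ranged from 4 to 21. A missing call is therefore a site that did not pass in that list and not a measured absence. Of 8 LSK marker genes, 7 had a start peak in at least 1 list, beside 11564 of 21440 among all genes. Of these 7, 4 were called in all 7 lists, beside 40.4% of the genes with a peak. Ly6a, which encodes Sca1, had no start peak in any list. Of 11 markers of lineage cells removed in the sort, 1 had a peak, in 1 list.

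Most starts of the family lie in CpG-rich sequence. The RefSeq (GRCm38.p6) promoter set used here gives 15 starts for 9 of the 10 genes, each with 300 bases from 250 before the start to 50 after it. The promoters of 6 genes are shown, all 3 survival genes and, of the death genes with a promoter entry, 2 with summits above the list median on average (Bcl2l11 and Bid) and Bax, with the lowest. Pmaip1, which was called in the fewest lists, has no entry. All are written 5′ to 3′ on the gene's strand, and capitals mark the GC box (GGGCGG, or CCGCCC on the other strand) and the CCAAT box (CCAAT, or ATTGG on the other strand).
Mcl1, survival, chr3:95658471-95658770, plus strand: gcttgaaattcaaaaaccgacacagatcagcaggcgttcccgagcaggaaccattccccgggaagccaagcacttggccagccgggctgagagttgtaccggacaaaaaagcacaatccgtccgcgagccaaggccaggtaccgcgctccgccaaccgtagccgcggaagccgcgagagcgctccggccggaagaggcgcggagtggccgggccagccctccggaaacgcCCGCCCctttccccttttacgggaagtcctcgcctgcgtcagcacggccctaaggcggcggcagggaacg
Bcl2, survival, chr1:106714241-106714540, minus strand: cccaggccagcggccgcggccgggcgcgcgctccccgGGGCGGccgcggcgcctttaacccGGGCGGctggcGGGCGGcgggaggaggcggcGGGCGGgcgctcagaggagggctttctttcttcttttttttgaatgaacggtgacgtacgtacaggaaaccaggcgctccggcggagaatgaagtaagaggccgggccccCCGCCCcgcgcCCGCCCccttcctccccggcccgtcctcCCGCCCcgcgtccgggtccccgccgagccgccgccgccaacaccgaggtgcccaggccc
Bcl2l1, survival, the second start, chr2:152830668-152830967, minus strand: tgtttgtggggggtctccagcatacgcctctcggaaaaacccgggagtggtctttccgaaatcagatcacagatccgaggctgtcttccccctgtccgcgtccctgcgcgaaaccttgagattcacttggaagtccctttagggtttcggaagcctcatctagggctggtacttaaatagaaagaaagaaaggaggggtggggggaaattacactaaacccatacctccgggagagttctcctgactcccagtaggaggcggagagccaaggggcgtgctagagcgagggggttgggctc
Bcl2l11, death, the second start, chr2:128127325-128127624, plus strand: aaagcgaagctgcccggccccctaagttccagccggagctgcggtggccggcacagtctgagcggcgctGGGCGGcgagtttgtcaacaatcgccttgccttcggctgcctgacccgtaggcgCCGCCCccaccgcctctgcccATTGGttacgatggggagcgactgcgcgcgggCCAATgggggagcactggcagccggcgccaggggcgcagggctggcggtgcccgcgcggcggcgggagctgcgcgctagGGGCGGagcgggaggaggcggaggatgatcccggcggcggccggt
Bid, death, chr6:120916775-120917074, minus strand: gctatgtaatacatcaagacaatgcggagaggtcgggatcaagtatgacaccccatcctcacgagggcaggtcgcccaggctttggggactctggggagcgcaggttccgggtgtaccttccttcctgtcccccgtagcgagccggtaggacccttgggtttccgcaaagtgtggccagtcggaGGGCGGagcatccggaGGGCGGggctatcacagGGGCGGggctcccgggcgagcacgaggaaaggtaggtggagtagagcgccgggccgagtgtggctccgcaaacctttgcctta
Bax, death, chr7:45466849-45467148, minus strand: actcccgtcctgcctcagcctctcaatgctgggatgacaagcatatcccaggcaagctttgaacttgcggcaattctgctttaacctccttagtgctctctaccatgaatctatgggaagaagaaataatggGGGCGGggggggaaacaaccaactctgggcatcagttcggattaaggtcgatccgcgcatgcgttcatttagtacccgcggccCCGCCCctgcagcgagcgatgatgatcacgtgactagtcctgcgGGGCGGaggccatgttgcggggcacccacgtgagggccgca

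A GC box lay in 10 of the 15 windows, beside 46.2% of 21263 promoters of protein-coding genes outside chromosome 18. A CCAAT box lay in 4 of 15, beside 38.2%. TATAAA, searched on both strands, was in 0 of 15 windows and in 12.6% of all promoters. The Bcl2 window held 7 GC boxes, and the third Bbc3 window also held 7, where overlapping matches were each counted. The ratio of observed to expected CpG was above 0.6 in 13 of 15 windows and in 47.6% of all promoters. The exceptions were Bak1, with a ratio of 0.435, and the third Bcl2l1 start, with 0.0558. The p53 half-site had a match in the Bax window and in no other, beside 7.37% of all promoters. These windows share starts within a gene, and a match of letters is a description of the window and not a binding site.

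Start peaks were called in 61 of the 70 gene and list pairs. The survival genes were called in 20 of 21 pairs (95.2%) and the death genes in 41 of 49 (83.7%), beside 77.5% of pairs over the 11564 genes. Mcl1, Bcl2l1, Bbc3, Bcl2l11, and Bad had a start peak in all 7 lists, so 5 of 10 members did, beside 40.4% of all genes tested. Bcl2, Bak1, and Bid had one in 6 lists, Bax in 5, and Pmaip1 in 3. No member was called in every list of one diet and in none of the other. Across all genes, 0.285% had a start peak in every HFD-LSK list with none from LFD-LSK and 0% the reverse, and Fisher's exact test gave members p-values from 0.429 to 1 (adjusted p = 1 for each).

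Peaks were ranked by fold enrichment inside their own list, so that rank 1 is the strongest, and ranks are also given as a share of the list's length. A list without a peak took the middle rank between its length and the 14659 regions that the 7 lists make together.

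Mcl1 had the steadiest mark of the survival genes. Its start peak ranked 718, 5674.5, and 6900.5 in the HFD-LSK lists, replicates 1 to 3, with 735, 1876, 1324.5, and 737 for LFD-LSK, replicates 1 to 4. In LFD-LSK these places all lay within the top 17.7% of the lists, whereas HFD-LSK replicates 2 and 3 lay at 43.3% and 57.6%. The mean rank was 4431 ± 3273 (SD, n = 3) for HFD-LSK against 1168 ± 547 (SD, n = 4), a difference of 3263 places that did not pass the exact permutation test (two-sided p = 0.143, adjusted p = 0.975). The groups overlapped, since HFD-LSK replicate 1 held the lowest rank of all 7. Summit fragments told less of a difference, at 71, 71, and 21 in HFD-LSK and 73, 52, 28, and 30 in LFD-LSK. Relative to the median of each list they were 1.58 ± 0.158 (SD, n = 3) and 1.5 ± 0.0632 (SD, n = 4), the narrowest range of any member called in all lists. Fold is the summit over a local background, and the background recovered at the Mcl1 summit was 8.80 times its list's median in HFD-LSK replicate 2 and 2.00 times in replicate 3, against 0.94 to 5.0 times in the other lists. The part of the background in the rank difference was not tested.

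Bcl2l1, the source of BCL-XL, was called everywhere but at very different places. It ranked 1057.5, 8665, and 11883 in HFD-LSK and 787, 1965, 4977.5, and 3784.5 in LFD-LSK. HFD-LSK replicate 3 placed it at 99.2% of the list, almost the last peak, and replicate 1 at 11.5%. The mean rank was 7202 ± 5559 (SD, n = 3) against 2879 ± 1865 (SD, n = 4), and the difference of 4323 places had an exact permutation p of 0.200 (adjusted p = 0.975). Summit fragments were 64, 69, and 19 in HFD-LSK and 72, 42, 28, and 19 in LFD-LSK, or 1.47 ± 0.176 (SD, n = 3) and 1.29 ± 0.275 (SD, n = 4) times the list median. The recovered background was 0.707, 17.6, and 4.15 times the list median in HFD-LSK and 1.00, 1.00, 10.01, and 1.00 times in LFD-LSK. LFD-LSK replicate 4 lay at 54.7% of its list, with a summit of 0.905 times the list median, the lowest of the 7. The part of the background in the ranks was not tested.

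RefSeq gives Bcl2l1 3 starts on chromosome 2. The peaks of the 7 lists together spanned chr2:152830446-152831773. The second start, whose promoter is shown above, lay under a peak in 5 lists and the first in 3. The third start, which has the CpG-poor window, lay under a peak in 0 of 7 lists. The summit lay from -482 to 450 bp of the nearest start, with negative distances upstream.

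Bcl2, the founding survival gene, was the member whose recovered signal separated the diets most. Its start peak ranked 1656, 2576.5, and 7613 in the HFD-LSK lists. It ranked 4457, 2162.5, and 8672.5 in replicates 1 to 3 of LFD-LSK and was not called in replicate 4. The mean rank was 3949 ± 3207 (SD, n = 3) for HFD-LSK against 6521 ± 3921 (SD, n = 4, with the missing list at its assigned rank of 10790.5), and the exact permutation p was 0.4 (adjusted p = 0.985). Its summits held 58, 57, and 20 fragments in HFD-LSK and 43, 43, and 12 in the LFD-LSK lists that called it. As multiples of the list median these were 1.38, 1.33, and 1.33 in HFD-LSK and 0.90, 1.3, and 0.63 in LFD-LSK. Every HFD-LSK value was above every LFD-LSK value, though by little over LFD-LSK replicate 2. With LFD-LSK replicate 4 set to the fewest fragments that list called, the difference was 0.53 with an exact permutation p of 0.0571 (adjusted p = 0.705), and across all genes 3.28% passed the same test upward in HFD-LSK and 0.614% downward. This measure was chosen after the data were seen, and 71.7% of all genes were higher in HFD-LSK by it.

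Bcl2 also carried a peak inside the gene in 6 of 7 lists. It lay within chr1:106711499-106713164, from 1126 to 2791 bp downstream of the start, and no other gene's start lay within 1 kb of it. In HFD-LSK it was 1316, 1649, and 1189 bp wide, and the first 3 LFD-LSK replicates had widths of 477, 1484, and 380 bp. Its summit held 29, 37, and 13 fragments in HFD-LSK and 26, 33, and 11 in LFD-LSK, fewer than the start peak in each of the 6 lists. By fold this inner peak lay at 73.2%, 45.2%, and 25.7% of list length in HFD-LSK and 97.3%, 39.5%, and 89.6% in LFD-LSK. In HFD-LSK replicate 3 it ranked nearer the top than the start peak, at 3073 against 7613, and in the others farther from it. LFD-LSK replicate 4, which had no start peak at Bcl2, had none here either. Mcl1 had 1 further peak in its gene body, 343 bp wide with 10 fragments, in HFD-LSK replicate 2.

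**Figure D1:**
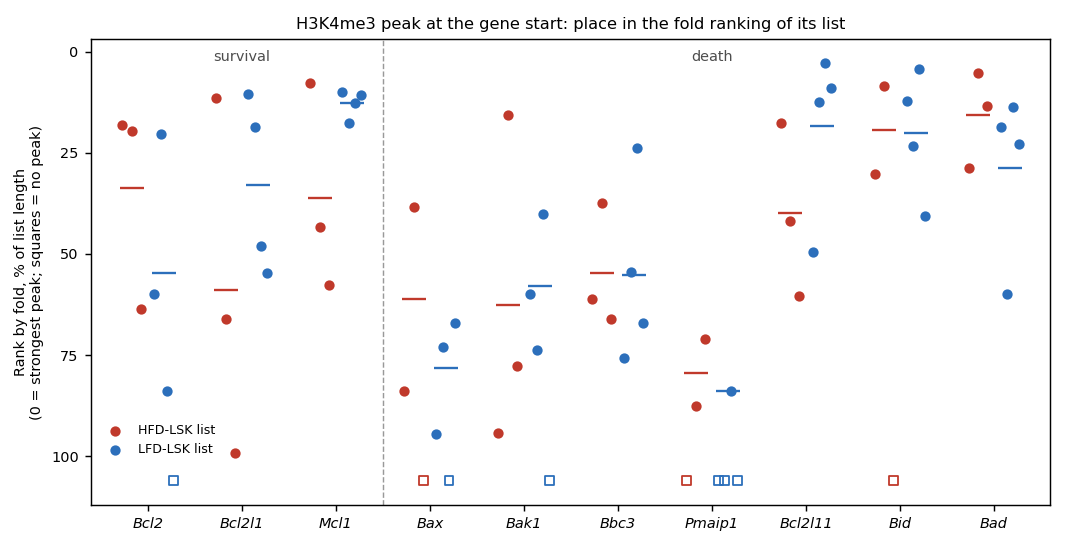
Place of the start peak of each gene in the fold ranking of its list, as a percent of list length with 0 as the strongest peak, for 3 HFD-LSK lists (red) and 4 LFD-LSK lists (blue). Dashes are means over the lists with a peak, open squares are lists with no peak, and the 4 LFD-LSK points of Mcl1 lie together between 9.87% and 17.7% while those of most other genes are spread widely.

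By fold rank the effectors lay lower in the lists than the survival genes. Their median places were 73.0% for Bax and 66.7% for Bak1, beside 12.8% to 48.1% for the survival genes. Bax, which forms the mitochondrial pore with BAK1, was called in 5 lists and was missed in HFD-LSK replicate 3 and LFD-LSK replicate 3. Replicates 1 and 2 of HFD-LSK ranked it 7696 and 5032.5, and replicates 1, 2, and 4 of LFD-LSK ranked it 7045, 7716, and 4638.5. Its summits held 25 and 42 fragments in HFD-LSK and 28, 22, and 17 in LFD-LSK, below the list median in all 5, and its peaks were 423 to 1034 bp wide. The mean rank was 8682 ± 4230 (SD, n = 3) for HFD-LSK against 7976 ± 3296 (SD, n = 4) (exact permutation p = 0.714, adjusted p = 0.985). The lists that missed it called peaks elsewhere with as few as 4 and 8 fragments.

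Bak1 was called in 6 lists and missed in LFD-LSK replicate 4. It ranked 8654.5, 2057, and 9311.5 in HFD-LSK, and the first 3 LFD-LSK replicates ranked it 4457, 7785.5, and 4157.5, while HFD-LSK replicate 2 alone placed it in the top 15.7%. The means were 6674 ± 4012 (SD, n = 3) and 6798 ± 3129 (SD, n = 4) with an exact permutation p of 1. The summit lay 523 to 883 bp inside the gene, farther from the start than in any other member, and the start itself lay under a peak in 3 lists. A start of Ggnbp1 lies at chr17:27029259, upstream of Bak1 on the other strand, and was outside the peaks, although the body of Ggnbp1 spans Bak1.

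Bcl2l11, which encodes BIM, had the broadest mark of the family. Its start peak was 2367, 3656, and 616 bp wide in HFD-LSK and 2481, 2805, 2641, and 1089 bp wide in LFD-LSK. In 5 lists it was in the widest few percent, at percentile 97.97 or higher among all start peaks of the list, and in HFD-LSK replicate 3 and LFD-LSK replicate 4 it was split into 2 peaks that together covered 1543 and 1511 bp. Both RefSeq starts, at chr2:128126038 and chr2:128127575, lay under a peak in all 7 lists. It ranked 1611.5, 5498, and 7237.5 in HFD-LSK and 3689, 1319, 301.5, and 627.5 in LFD-LSK, where replicate 3 placed it in the top 2.91%. The mean rank was 4782 ± 2880 (SD, n = 3) against 1484 ± 1530 (SD, n = 4), the lowest p of the family (exact permutation p = 0.114, adjusted p = 0.975). Ranked by summit fragments instead of fold, the difference, HFD-LSK minus LFD-LSK, was -479 places (exact permutation p = 0.714). The recovered background was 10 and 3.00 times the list median in replicates 2 and 3 of HFD-LSK and at most 1.00 times in the other 5 lists, and its part in the rank was not tested. The 3′ end of Acoxl overlaps the start of Bcl2l11, and the RefSeq start of Acoxl lies far outside the peak.

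Bid, which is cut by caspase-8 and links death receptors to mitochondria, was called in 6 lists and missed in HFD-LSK replicate 3. Replicates 1 and 2 of HFD-LSK ranked it 2780.5 and 1110, and LFD-LSK ranked it 902, 2464, 444.5, and 2806, within the top 40.5% wherever it was called. The mean over called lists was 19.4% of list length for HFD-LSK (SD 15.4, n = 2) against 20.1% (SD 15.7, n = 4). With the missing list at its assigned rank of 13318.5 the mean rank was 5736 ± 6619 (SD, n = 3) against 1654 ± 1156 (SD, n = 4), with an exact permutation p of 0.171 (adjusted p = 0.975), so this difference rests on 1 list. Without HFD-LSK replicate 3 it was 291 places.

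Bad, which is held inactive by growth factor signaling, was called in all lists. It ranked 2636, 686, and 1597.5 in HFD-LSK and 1387.5, 6333, 1417.5, and 1586 in LFD-LSK, so all lists but LFD-LSK replicate 2 placed it within the top 28.7%. Its summits held 50, 95, and 26 fragments in HFD-LSK and 66, 51, 28, and 27 in LFD-LSK, or 1.71 ± 0.510 (SD, n = 3) and 1.42 ± 0.114 (SD, n = 4) times the list median. The mean rank was 1640 ± 976 (SD, n = 3) for HFD-LSK against 2681 ± 2436 (SD, n = 4) (exact permutation p = 0.771, adjusted p = 0.985). Starts of Gpr137, on the other strand, lie at chr19:6941193, chr19:6941507, and chr19:6942450, and the Bad peak covered them in 4, 6, and 6 of 7 lists, so the mark cannot be given to either gene.

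A further Bad peak lay at the end of the gene in all 7 lists, within chr19:6950299-6952774. It was 1080, 2476, and 1208 bp wide in HFD-LSK and 379, 1648, 1367, and 1113 bp in LFD-LSK, at 18.7% to 74.5% of the lists. No gene start that could be placed lay within 1 kb of it.

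Bbc3, which encodes PUMA, was called in all lists with a middling signal. It ranked 5608.5, 4886.5, and 7907 in HFD-LSK and 5636.5, 5760.5, 2462.5, and 4638.5 in LFD-LSK, at 23.8% to 75.7% of list length. Summit fragments were 34, 45, and 11 in HFD-LSK and 37, 27, 24, and 17 in LFD-LSK. The means of rank were 6134 ± 1577 (SD, n = 3) and 4625 ± 1526 (SD, n = 4) with an exact permutation p of 0.371 (adjusted p = 0.985). Of its 3 starts, the first and the third lay under a peak in 6 lists and the second in 5. Bbc3 held 9 more peaks inside the gene, at least 1 in each of 7 lists, between chr7:16311574 and chr7:16314245, and they were 367 to 2335 bp wide.

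Pmaip1, which encodes the p53 target NOXA, was the least marked. Only replicates 2 and 3 of HFD-LSK and replicate 3 of LFD-LSK called it, at 87.6%, 71.1%, and 83.8% of list length. Its summits held 14, 7, and 12 fragments. In the lists that missed it the fewest fragments called at any peak were 16 in HFD-LSK replicate 1 and 21, 10, and 9 in LFD-LSK replicates 1, 2, and 4. Its mean ranks of 10639 ± 1850 (SD, n = 3) and 10783 ± 1621 (SD, n = 4) hold mostly assigned values, and the exact permutation p was 0.857.

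Across the family, 0 of 10 members passed the rank test at p under 0.05, 6 had a mean rank farther from the top in HFD-LSK and 4 nearer to it. Over all genes, 0.718% passed nearer the top in HFD-LSK and 1.79% farther from it, with a lowest adjusted p of 0.975. By share of list length the same counts turned, from 83 nearer and 207 farther to 209 nearer and 74 farther. The smallest p that the 35 assignments of 7 lists allow is 0.0286. The median rank difference was 1108 places over the members, 678 over the genes called in all 7 lists, and -35.8 over all genes tested. Among the genes called in all 7 lists 64.7% had a mean rank lower down in HFD-LSK, which is the direction of Mcl1, Bcl2l1, Bbc3, and Bcl2l11 but not of Bad.

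Survival and death genes were then set side by side within each list, as a description with no test. The median place of the survival genes was 11.5%, 43.3%, and 63.6% of list length for HFD-LSK, replicates 1 to 3, with 10.6%, 18.6%, 48.1%, and 32.7% for LFD-LSK, replicates 1 to 4. The death genes lay at 45.7%, 37.3%, and 66.0% in HFD-LSK and 54.7%, 57.2%, 18.7%, and 40.5% in LFD-LSK. The survival median was thus nearer the top in 5 of 7 lists, and the exceptions were HFD-LSK replicate 2 and LFD-LSK replicate 3. The lists of each diet held both a wide and a narrow gap. The median over all gene starts called in a list lay between 39.6% and 44.7%.

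**Figure D2:**
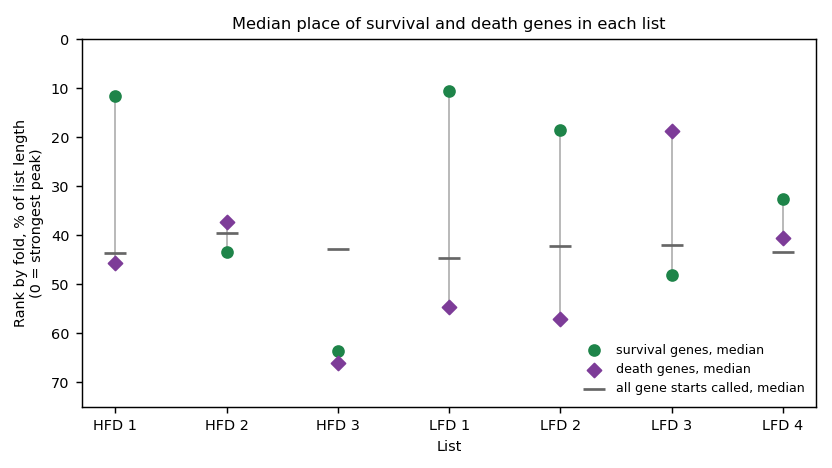
Median place of the called survival genes (green circles, up to 3 genes), death genes (purple diamonds, up to 7), and all called gene starts (gray dashes) in the fold ranking of each list, in percent of list length with 0 as the strongest. Survival genes lie above death genes in 5 lists, and the order is turned in HFD 2 and LFD 3.

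In summit fragments the survival median was the higher in 7 of 7 lists. It was 1.52, 1.60, and 1.33 times the list median in HFD-LSK and 1.5, 1.3, 1.47, and 1.17 times in LFD-LSK. The death median was 0.99, 1.53, and 1.13 times in HFD-LSK and 0.94, 1.18, 1.37, and 1.05 times in LFD-LSK. The death arm was itself divided, since Bcl2l11, Bid, and Bad averaged 1.55, 1.41, and 1.54 times the list median over the lists that called them, beside 1.53 for Mcl1, while Bbc3, Bax, and Pmaip1 averaged 0.893, 0.726, and 0.475. Bak1 averaged 1.10.

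**Figure D3:**
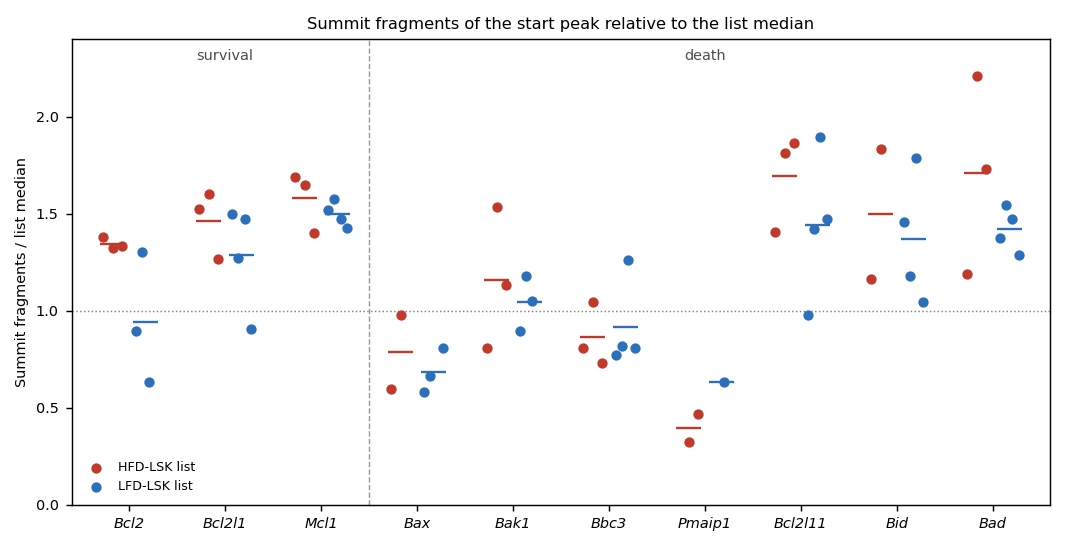
Summit fragments of each start peak divided by the median of its list, for HFD-LSK (red) and LFD-LSK (blue) lists that called it, with means as dashes and the list median as a dotted line at 1. Mcl1 stays between 1.40 and 1.69 in all 7 lists, the 3 Bcl2 points of HFD-LSK lie above its 3 LFD-LSK points, and Bax and Pmaip1 lie below 1.

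Widths did not divide the arms. The survival median was wider in 4 of 7 lists, at 1356, 1794, and 946 bp in HFD-LSK and 1037, 1296, 704, and 938 bp in LFD-LSK, beside 1350.5, 1879, and 616 bp and 954, 1314, 1366.5, and 648 bp for the death genes. Between diets, 4 of the 5 members called in all lists were wider in HFD-LSK by their means and none passed the exact permutation test. As multiples of the list median only Bad was, by 0.35, while Bcl2l1, Mcl1, Bbc3, and Bcl2l11 had differences of -0.19, -0.0214, -0.36, and -0.71. The widest gap was that of Bad, at 1795 ± 140 bp (SD, n = 3) and 1252 ± 546 bp (SD, n = 4), with p = 0.229 by exact permutation. Mcl1 was 1466, 2595, and 1261 bp wide in HFD-LSK and 1311, 1296, 1628, and 1211 bp in LFD-LSK (exact permutation p = 0.343). Over the 4677 genes called in all lists, 92.6% were wider in HFD-LSK, and the median difference over all 4677 was 278 bp. Of them 3.63% passed as wider and 0% as narrower, or 68 and 41 genes when widths were taken as multiples of the list median against 170 and 0 in bp.

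**Figure D4:**
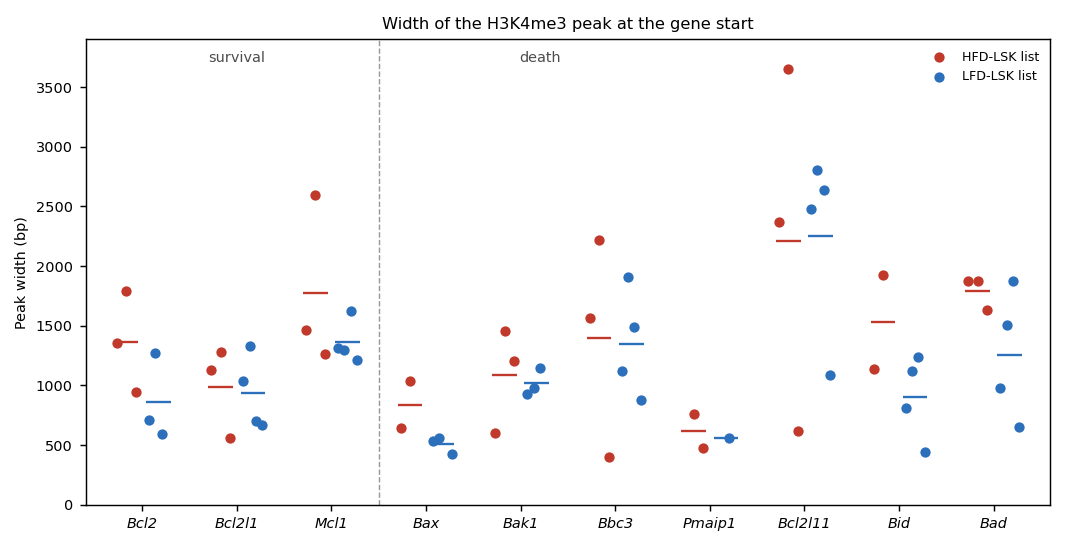
Width in bp of the start peak with the highest fold for each gene, in HFD-LSK (red) and LFD-LSK (blue) lists, with means as dashes. Bcl2l11 has the widest peaks, up to 3656 bp, except in the lists where its mark is split.

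**Figure D5:**
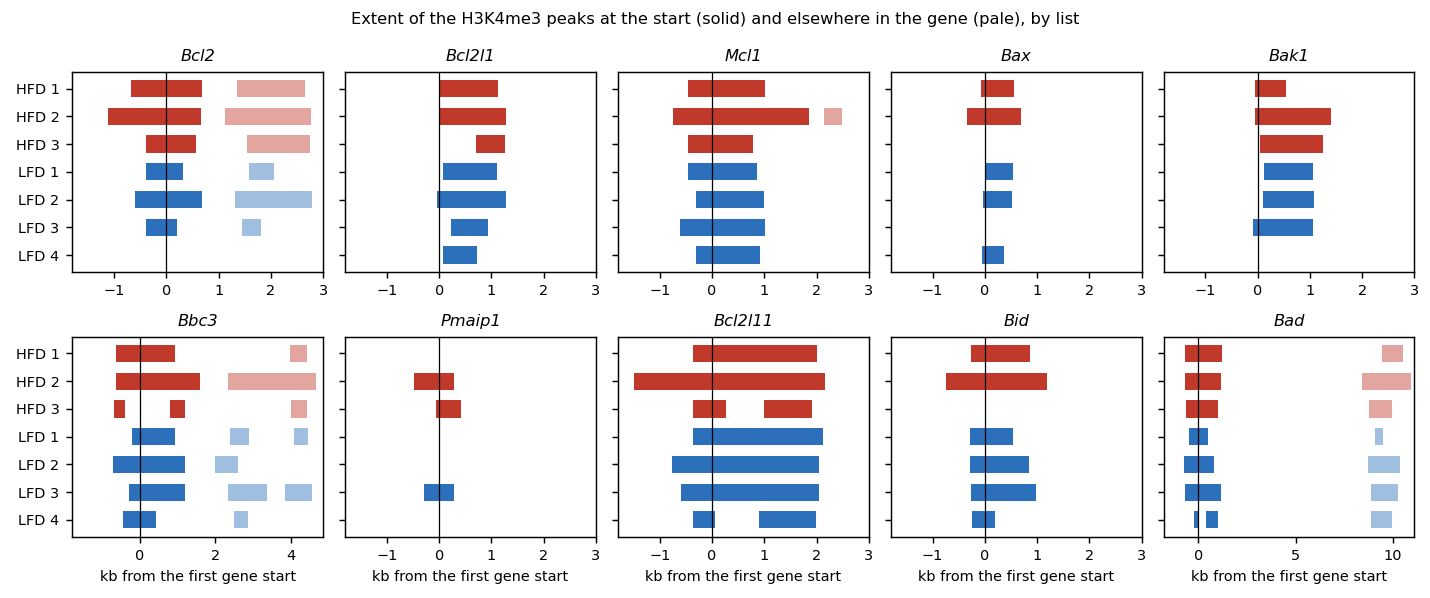
Extent of each peak along the gene in kb from the first RefSeq start (vertical line), reading into the gene to the right, by list, with peaks at the start solid and other peaks in the gene pale (HFD-LSK red, LFD-LSK blue). Bcl2 shows a second peak in 6 lists, Bbc3 and Bad show further peaks in all 7, and Bak1 and Bcl2l1 peaks lie mostly inside the gene.

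The rest of the pathway was read the same way in 31 genes. A start peak was present for 26, beside 11564 of 21440 among all genes, and was called in all 7 lists for 10 of these 26, beside 40.4% of all genes tested. Of the 26, 13 ranked nearer the top in HFD-LSK and 13 farther from it. At p under 0.05, 0 passed nearer the top and 1 farther from it, beside 0.718% and 1.79% of all genes. That gene was Diablo, which encodes a mitochondrial protein released with cytochrome c that relieves caspase inhibition. It ranked 4549.5, 11986, and 5347 in HFD-LSK and 3805, 2071, 2608, and 943 in LFD-LSK, with means of 7294 ± 4083 (SD, n = 3) and 2357 ± 1189 (SD, n = 4). The exact permutation p was 0.0286, the smallest the design allows, and the adjusted p was 0.975. As a share of list length its groups overlapped, at 44.6% to 91.5% and 13.6% to 51.1%. Its recovered background was 0.707, 26.4, and 0.778 times the list median in HFD-LSK and 5.31, 0.950, 1.00, and 2.10 times in LFD-LSK. In summit fragments over the list median the difference, HFD-LSK minus LFD-LSK, was -0.22 (exact permutation p = 0.143). The part of the background in the Diablo ranks was not tested. In the group of other survival genes 1 of 5 had a peak, and Bcl2a1a, Bcl2a1b, Bcl2a1d, and Bcl2l10 had none in any list. The Bcl2a1 genes are near-identical copies, so reads there may not be placed with certainty. All 8 apoptosome and caspase genes had a start peak in some list, and 4 of the 8 were called in all 7, beside 40.4% of all genes.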

How the data were processed

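H3K4me3 CUT&Tag of sorted LSK cells was analyzed from 7 peak lists, 1 per library, and the 7 IgG libraries were not analyzed here. The sample titles say CUT&RUN, whereas the methods of the study describe CUT&Tag, the name used here. The submitters' processing notes name Trim Galore, Bowtie2, Picard, MACS2, bedtools, HOMER, featureCounts, and GRCm38, whereas the methods of the study name GRCm39 and SEACR, and the peaks match gene starts of GRCm38. For each peak the authors deposited the fold enrichment, a ratio of the summit to local background, and −log10 p and −log10 q values. The authors called each list on 1 library, and fold, p, and q were not compared as levels between lists.

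Gene starts were the curated RefSeq starts of GRCm38.p6 in the promoter set used here. Where that set held none (3948 genes, Pmaip1 among them), the gene's 5′ end was used, with the strand of its symbol in GENCODE. A peak belonged to a start when it overlapped the 1 kb on either side, and the peak with the highest fold gave rank and width. Summit fragments and background were recovered by inverting the MACS2 formulas. A peak counted as solved when the fragment number was within 0.01 of a whole number, which held for 100% of peaks. Ranks and widths were compared by exact permutation of the list labels, counting differences of either sign, and calls by Fisher's exact test (scipy 1.17.1), with Benjamini-Hochberg adjustment over all protein-coding genes with a peak. The steps were tested on simulated data. The genes named are the members, pathway genes with a rank p under 0.05 or called in every list of 1 diet and none of the other, and neighbors with a start within 1 kb of a member's peak. Acoxl, Ly6a, Bcl2l10, and the Bcl2a1 genes fall outside this rule and were named after their values were seen. Members, gene lists, and tests were chosen with earlier results of these data known. Replicate numbers recur in both diets, and neither their pairing nor the cohort of each library is given in the sources used here, so the permutations treat the 7 lists as exchangeable. The alternatives were ranks by −log10 p, by share of list, or by fragments, a 3 kb window, the summit within 1 kb, a −log10 q of at least 5, equal list lengths, summed or relative widths, a replicate block, and each list left out. A single 5′ end per gene and fragments over the list median were added after the data were seen.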

Additional observations from a re-analysis of the deposited data

Results flagged for a closer look

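Bad ranked 6333 by fold in LFD-LSK replicate 2, far from the other 3 LFD-LSK lists, where it ranked 1387.5 to 1586. The gap to the nearest list was 0.960 of the whole range of the 4 values, above Dixon's critical value for 4 samples. Of 12 sets of 4 LFD-LSK values tested in the family this was the only one, and chance flags about 1 in 20 such groups. The summit in LFD-LSK replicate 2 held 51 fragments, 1.55 times the list median and above the 1.29 to 1.47 times of the other 3 lists. The recovered background there was 20.01 times the list median, against 1.00 to 4.2 times in the other 3. The part of the background in the rank was not tested. HFD-LSK has 3 lists and was not examined for outlying samples.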

How the results depend on the processing

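No member passed the rank, width, or call tests under any alternative run, but leaving out a list puts the smallest possible p at 0.1 or 0.0667 and the replicate block puts it at 0.25, so those runs cannot show a call. Over the 10 members, 66 of 77 rank differences and 12 of 16 width differences kept their sign when no list was left out. The members called in every list fell from 5 to 3 with a −log10 q of at least 5, with equal list lengths, and with a single 5′ end per gene, and ranged from 5 to 7 with 1 list left out. The survival median was nearer the top in 5 of 7 lists by −log10 p as well, and in 4 to 5 of 6 lists with 1 left out. Rank differences, HFD-LSK minus LFD-LSK, changed sign for Bak1 (166) and Pmaip1 (499) by −log10 p, for Bax (-9.58 percentage points) and Bbc3 (-0.45) by share of list, and for Pmaip1 (650), Bcl2l11 (-479), and Bad (78.7) by summit fragments. They also changed sign for Bax (-1222), Bak1 (1175), and Pmaip1 (675) at the stricter q, and for Bax (-213) at equal lengths. Width differences changed sign for Bcl2l11 in summed width (163 bp) and for Bcl2l1 (-0.19), Mcl1 (-0.0214), and Bbc3 (-0.36) in multiples of the list median. The cause was not tested.

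With 1 list left out, the rank difference ranged from -1480 to 2430 for Bax, -1309 to 2286 for Bak1, -787 to 1048 for Pmaip1, and -1539 to 176 for Bad, and it changed sign in some of these runs. The width difference ranged from -87.0 to 272 bp for Bcl2l1, -368 to 543 bp for Bbc3, and -763 to 758 bp for Bcl2l11. The rank differences of Bcl2 (-4272 to -1149), Bcl2l1 (1983 to 7396), Mcl1 (2028 to 5119), Bbc3 (623 to 2133), Bcl2l11 (2071 to 4884), and Bid (291 to 6194) kept their sign. Over all genes the number called only in HFD-LSK, 33 with all lists, was 69 at the stricter q, 13 at equal lengths, 331 without HFD-LSK replicate 1, and 163 and 97 without replicates 2 and 3 of LFD-LSK. The number called only in LFD-LSK, 0 with all lists, was 31 at equal lengths and 24 without HFD-LSK replicate 2.

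Deviations from the group means of same-numbered lists correlated over 4677 genes by 0.18, 0.02, and 0.04, so not every pair was over 0.1 and the numbers were not taken as pairs. HFD-LSK replicates 1 and 2 correlated best with their own number, and replicate 3 with LFD-LSK replicate 2 (0.05). In the replicate block, which pairs lists 1 to 3 and drops LFD-LSK replicate 4, the difference was 3119 places for Mcl1 and 4625 for Bcl2l1, and it changed sign for Bax (-407) and Bak1 (1208) in rank and for Bcl2l1 (-32.3 bp) and Bbc3 (-112 bp) in width. Precision is limited by 3 and 4 lists and by summits of 7 to 95 fragments, and the values carry no correction for counting error.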
